A study of Homo sapiens with 9 samples.

Results

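The plasminogen activation system was followed through 8 genes in HaCaT keratinocytes: the plasminogen activators PLAU and PLAT, the urokinase receptor PLAUR, the activator inhibitors SERPINE2 and SERPINB2, tissue factor (F3) and the Kunitz-type inhibitors TFPI and TFPI2. The genes were chosen by symbol, and they are 8 of the 16199 genes with a count in any library. HaCaT is a spontaneously immortalised line of human skin keratinocytes, of wild-type genotype per the labels. RNA was sequenced from 3 untreated libraries, 3 libraries of cells treated with EGF (10 nM, 24 h) and 3 libraries of cells treated with bleogen pB1 (1 µM, 24 h), a cystine-rich peptide of the cactus Pereskia bleo that activates the EGF receptor. Per the labels the cells were maintained with 10% fetal bovine serum, all 3 groups were in serum-free medium for the experiment, and the agents were given after confluence. No time is given for the untreated group. The study asked which genes the peptide and EGF regulate in keratinocytes, in the setting of wound repair. The labels do not say that the replicates were separate cultures, and every p-value below measures only the spread between these libraries.

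In the plasminogen activation system, urokinase (PLAU) and tissue-type plasminogen activator (PLAT) cleave plasminogen, which comes mostly from the liver through the blood, to the broad protease plasmin. Urokinase acts at the cell surface, where it is held by its receptor PLAUR, and both activators are blocked by serpins, among them plasminogen activator inhibitor-2 (SERPINB2) and protease nexin-1 (SERPINE2). Migrating keratinocytes at a wound edge are known to use plasmin to cut through the fibrin clot. The clot itself starts with tissue factor, the cell-surface receptor of coagulation factor VII, whose activity is blocked by tissue factor pathway inhibitor (TFPI), while the related TFPI2 mainly inhibits plasmin and other serine proteases of the matrix.

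The libraries held between 20288417 and 21320994 expected counts (estimates per gene that divide shared reads between transcripts), and a level of 3 counts corresponded to 0.141 to 0.148 CPM (counts scaled to library size with TMM factors), a floor that covers counting error only. A gene was called when its Benjamini-Hochberg adjusted p in edgeR's quasi-likelihood test was at most 0.05 and its log2 fold change (log2FC) at least 0.5 in size. The 8 keratinocyte markers all passed the count filter. Their summed FPKM (fragments scaled for gene length and depth) was 6790.24 to 7640.48 in the untreated libraries. It was 6014.02 to 6082.84 in the EGF-treated and 7248.63 to 8715.77 in the bleogen pB1-treated libraries. The summed FPKM of 6 fibroblast markers was 1.42 to 1.8 in the untreated, 0.23 to 0.33 in the EGF-treated and 1.14 to 1.83 in the bleogen pB1-treated libraries, and that of 5 endothelial markers was 0.68 to 1.05, 0.04 to 0.09 and 0.18 to 0.3. The 5 leukocyte markers summed to 7.04 to 8.03, 11.22 to 12.14 and 7.09 to 7.3, mostly from the lysosomal gene CD68 (5.74 to 11.29), with LYZ at 0.42 to 1.29, and the 4 melanocyte markers to 0.67 to 0.87, 0.39 to 0.66 and 0.5 to 0.82. Single markers of these lists reached an FPKM of 0.97 (COL3A1), 0.6 (COL1A1), 0.92 (CDH5) and 0.73 (PMEL), while COL1A2 was at most 0.03, PECAM1 at most 0.05, PTPRC at most 0.14 and TYR at 0. COL3A1 was 0.83 to 0.97 in the untreated and 0.09 to 0.13 in the EGF-treated libraries, and CDH5 was 0.52 to 0.92 and 0 to 0.06. The part of such cells in the results below was not tested. Bleogen pB1 replicate 1 stood apart in that 436 instead of 183 genes were called against untreated cells without it, and where a call of a gene below turns on it, both values are given.

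EGF changed 6 of the 7 genes of the system that could be tested. SERPINE2, PLAUR, TFPI2, SERPINB2 and F3 were upregulated, by between 2.04-fold (F3) and 19.7-fold (SERPINE2), and PLAT was downregulated to 0.398 of its untreated level, while PLAU was not called. TFPI had too few counts for the test. With bleogen pB1, 1 of the 7 genes was called: PLAUR was upregulated 1.56-fold. Directly between the treatments, the 6 genes that EGF changed were called again, 5 of them higher and PLAT lower in the EGF-treated cells. In bulk RNA a change in the share of cells that express a gene and a change in RNA per cell cannot be told apart.

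These counts have to be read against the share of all 12394 tested genes that was called. EGF against untreated cells called 36.9% of all genes (15.1% higher and 21.8% lower), bleogen pB1 against untreated cells called 1.48% (0.218% higher and 1.26% lower), and EGF against bleogen pB1 called 28.8% (10.8% higher and 18.0% lower). The share of higher genes among all those called depended on the scaling: 41% with TMM and 30.2% with upper-quartile factors for EGF against untreated cells, and 37.6% and 28.8% for EGF against bleogen pB1. None of the members called changed direction with it. The 3 libraries of the EGF-treated group did not overlap those of the untreated group in CPM for 6 of the 7 genes, and this held for 70.4% of all genes. For bleogen pB1 against untreated cells the groups did not overlap for 3 of the 7 genes (PLAUR, PLAT and SERPINB2), against 29.1% of all genes, and for EGF against bleogen pB1 for 6 of the 7, against 62.4%. A lack of overlap was thus frequent among all genes. The median log2FC of the 7 genes was 1.85 for EGF against untreated cells, 0.24 for bleogen pB1 against untreated cells and 1.52 for EGF against bleogen pB1, where the medians over all tested genes were −0.013, −0.0010 and −0.012. The first pair of comparisons share the 3 untreated libraries, and the direct contrast shares its libraries with both.

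**Figure D1:**
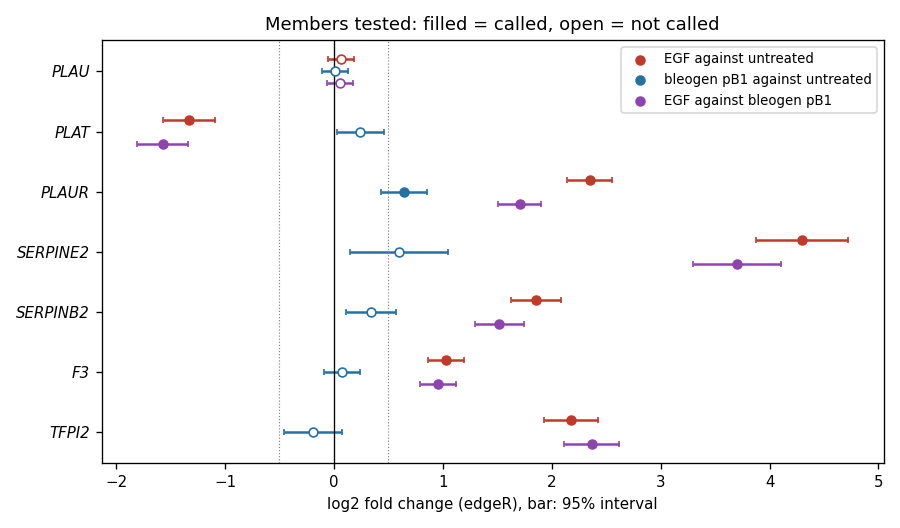
Log2 fold changes of the 7 tested genes (horizontal axis) with their 95% intervals from edgeR, for EGF against untreated, bleogen pB1 against untreated and EGF against bleogen pB1; filled points were called, open points were not, and dotted lines mark a log2FC of 0.5 in size. For EGF against untreated SERPINE2 lies farthest to the right at 4.30, PLAT is at −1.33 and PLAU at 0.06, and the 1 filled point of bleogen pB1 against untreated is PLAUR at 0.64.

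Urokinase was the activator with the higher level in every library, and it was not called in any comparison. PLAU (NCBI gene 5328; GRCh38 chromosome 10, 73909177 to 73917496, plus strand, 11 exons) had an FPKM of 72.91, 75.17 and 71.87 in the untreated, 70.69, 74.49 and 74.94 in the EGF-treated and 78.66, 71.35 and 74.31 in the bleogen pB1-treated libraries. The 3 groups overlapped throughout. The log2FC was 0.06 (SE 0.057, edgeR adjusted p = 0.33) with EGF and 0.01 (SE 0.057, edgeR adjusted p = 0.95) with bleogen pB1. The 95% intervals of these differences, −0.06 to 0.19 and −0.11 to 0.13, lie inside the limit of 0.5 that a called gene had to pass. PLAU is overlapped on the opposite strand by the long non-coding RNA C10orf55, which had 26.93 to 45.51 expected counts per library. It is not stated whether the counting used the strand, so that a part of these reads could belong to either gene, but they are few beside the 3421 to 3764 counts of PLAU. Of the called members, PLAUR is overlapped on its own strand by RN7SL368P and SERPINB2 by the protein-coding ENSG00000289724. No count was listed under these names, so their part in the reads cannot be told. TFPI2 is overlapped on the opposite strand by GNGT1, which had 0.0 to 1.0 expected counts.

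Tissue-type plasminogen activator was the 1 member that EGF lowered. PLAT (NCBI gene 5327; chromosome 8, 42174718 to 42207709, minus strand, 14 exons) had an FPKM of 6.12, 6.09 and 5.82 in the untreated, 2.14, 2.51 and 2.2 in the EGF-treated and 7.76, 6.31 and 7.54 in the bleogen pB1-treated libraries. All EGF-treated libraries lay below all untreated ones, and all bleogen pB1-treated libraries lay above them. In CPM the level fell from 18.7 ± 0.578 to 7.44 ± 0.625 (SD, n = 3) with EGF, a log2FC of −1.33 (SE 0.11, edgeR adjusted p = 4.9e-07). With bleogen pB1 the CPM was 22.1 ± 2.42 (SD, n = 3), a log2FC of 0.24 with a 95% interval of 0.03 to 0.46, which was not called (edgeR adjusted p = 0.18). The direct contrast, EGF against bleogen pB1, was −1.57 (SE 0.11, edgeR adjusted p = 1.5e-07).

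**Figure D2:**
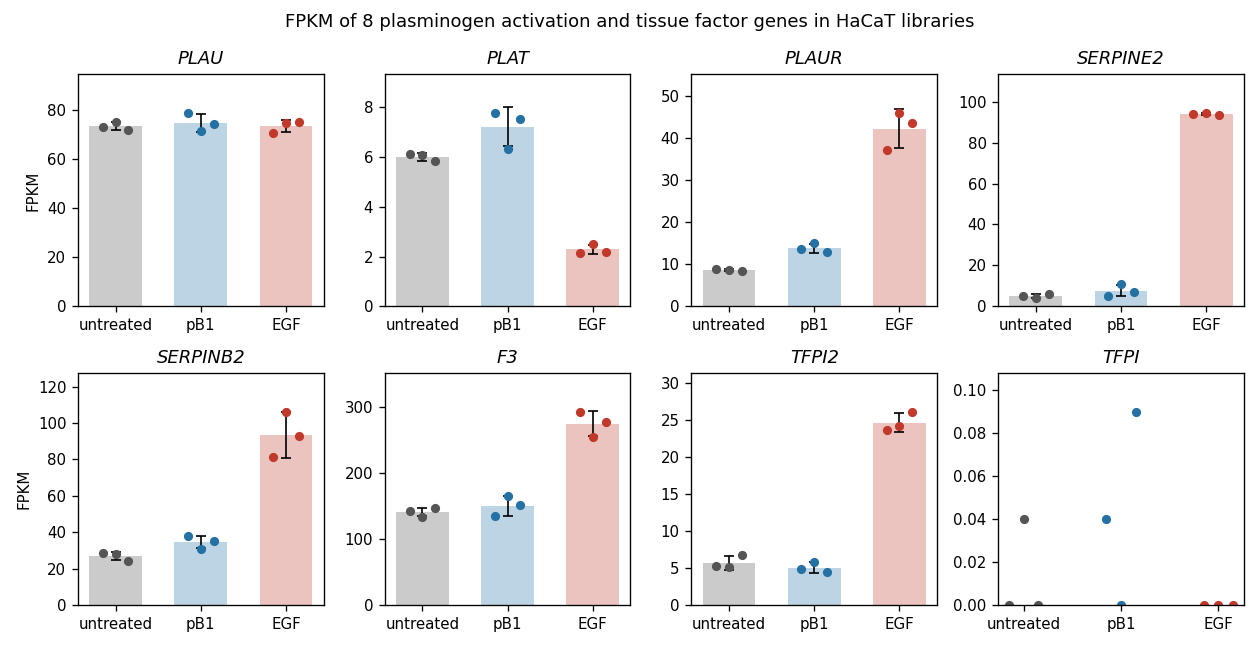
FPKM of each of the 8 genes (vertical axes, from 0 and different for each gene) in the 9 libraries, with 1 point per library, a bar at the mean of each group of 3 and its SD as error bar; for TFPI only the points are drawn. The untreated and bleogen pB1-treated libraries lie closer to each other than to the EGF-treated libraries for the 6 genes that EGF changed. The EGF-treated libraries stand above them for SERPINE2, PLAUR, TFPI2, SERPINB2 and F3 and below them for PLAT.

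The urokinase receptor PLAUR, a protein anchored by a lipid in the outer membrane that concentrates urokinase on the cell, was the member called with both agents. PLAUR (NCBI gene 5329; chromosome 19, 43646095 to 43670547, minus strand, 7 exons) had an FPKM of 8.97, 8.7 and 8.48 in the untreated, 37.13, 45.85 and 43.57 in the EGF-treated and 13.53, 14.95 and 12.88 in the bleogen pB1-treated libraries. The 3 groups were fully separate, with bleogen pB1 between the others. EGF raised the CPM from 12.7 ± 0.372 to 64.7 ± 6.94 (SD, n = 3), which was 5.09-fold (log2FC 2.35, SE 0.095, edgeR adjusted p = 1e-09). Bleogen pB1 raised it to 19.8 ± 1.51 (SD, n = 3), which was 1.56-fold (log2FC 0.64, SE 0.099, edgeR adjusted p = 0.0029). The 95% interval of this log2FC, 0.43 to 0.85, reaches below the fold limit of 0.5, and the call was lost when the change was tested against that limit (glmTreat, edgeR adjusted p = 1). EGF-treated cells had 3.26 times the level of bleogen pB1-treated cells (log2FC 1.71, SE 0.091, edgeR adjusted p = 1.6e-08).

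SERPINE2, which encodes protease nexin-1, a secreted serpin that inhibits thrombin, urokinase and tissue-type activator, had the largest change of the 7 tested genes with EGF. SERPINE2 (NCBI gene 5270; chromosome 2, 223975045 to 224039318, minus strand, 9 exons) had an FPKM of 4.86, 4.05 and 6.06 in the untreated and 94.09, 94.45 and 93.28 in the EGF-treated libraries. The EGF-treated values lay close together and far above all untreated ones. In CPM the level rose from 10.8 ± 2.11 to 212.7 ± 1.65 (SD, n = 3), which was 19.7-fold (95% interval 14.7 to 26.4; log2FC 4.30, SE 0.20, edgeR adjusted p = 2.8e-09). With bleogen pB1 the FPKM was 5.19, 10.72 and 7.05, so that replicate 1 fell within the untreated range and the others lay above it. The log2FC of 0.60 (95% interval 0.15 to 1.04) was not called (edgeR adjusted p = 0.11). Without bleogen pB1 replicate 1 it was 0.81 and was called (edgeR adjusted p = 0.011), and without replicate 2, the highest of that group, it was 0.27 (edgeR adjusted p = 0.48). The direct contrast between EGF and bleogen pB1 was 3.70 (SE 0.19, edgeR adjusted p = 1e-08).

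SERPINB2, plasminogen activator inhibitor-2, is a serpin that keratinocytes make in quantity and largely keep inside the cell. SERPINB2 (NCBI gene 5055; chromosome 18, 63871692 to 63903888, plus strand, 8 exons) had an FPKM of 28.54, 28.3 and 24.36 in the untreated, 81.45, 106.16 and 92.75 in the EGF-treated and 38.1, 31.05 and 34.96 in the bleogen pB1-treated libraries. As for PLAUR, the 3 groups did not overlap and bleogen pB1 lay between the others. EGF raised the CPM from 49.7 ± 4.58 to 179.5 ± 23.6 (SD, n = 3), which was 3.62-fold (log2FC 1.85, SE 0.11, edgeR adjusted p = 1.8e-08). With bleogen pB1 the CPM was 62.7 ± 6.63 (SD, n = 3), a log2FC of 0.34 (95% interval 0.11 to 0.57) that was not called (edgeR adjusted p = 0.089). The direct contrast was 1.52 (SE 0.10, edgeR adjusted p = 1.4e-07).

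Tissue factor was the most abundant of the 8 transcripts in all 9 libraries by FPKM. F3 (NCBI gene 2152; chromosome 1, 94529173 to 94541759, minus strand, 6 exons) had an FPKM of 141.93, 134.03 and 146.46 in the untreated, 292.38, 255.02 and 276.38 in the EGF-treated and 135.35, 165.45 and 150.83 in the bleogen pB1-treated libraries. The EGF-treated libraries stood above all others, and the bleogen pB1-treated libraries spread on both sides of the untreated ones. EGF raised the CPM from 323.0 ± 12 to 659.1 ± 46.3 (SD, n = 3), which was 2.04-fold (log2FC 1.03, SE 0.076, edgeR adjusted p = 2e-07). With bleogen pB1 the CPM was 340.4 ± 33.2 (SD, n = 3), a log2FC of 0.08 (95% interval −0.09 to 0.24, edgeR adjusted p = 0.6). Without bleogen pB1 replicate 2, the highest of that group, it was −0.00021, and without replicate 1, the lowest, it was 0.144. The direct contrast was 0.95 (SE 0.076, edgeR adjusted p = 5.4e-07).

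Of the pair of Kunitz-type inhibitors, TFPI2 was the one expressed. TFPI2 (NCBI gene 7980; chromosome 7, 93885396 to 93890753, minus strand, 5 exons) had an FPKM of 5.24, 5.13 and 6.75 in the untreated, 23.7, 24.23 and 26.13 in the EGF-treated and 4.85, 5.86 and 4.5 in the bleogen pB1-treated libraries. EGF-treated libraries were well above the rest, and untreated and bleogen pB1-treated libraries overlapped. EGF raised the CPM from 13.4 ± 2.05 to 60.6 ± 3.02 (SD, n = 3), which was 4.52-fold (log2FC 2.18, SE 0.11, edgeR adjusted p = 9e-09). The log2FC with bleogen pB1 was −0.19 (95% interval −0.46 to 0.08, edgeR adjusted p = 0.39). It was −0.056 without untreated replicate 3, −0.11 without bleogen pB1 replicate 3 and −0.31 without bleogen pB1 replicate 2, and was called in none of these. The direct contrast was 2.37 (SE 0.12, edgeR adjusted p = 7.8e-09). TFPI (NCBI gene 7035; chromosome 2, 187464230 to 187565760, minus strand, 8 exons) was listed in only 3 of the 9 libraries, with 3 expected counts in untreated replicate 2 and with 2 and 3 in bleogen pB1 replicates 1 and 3. These values are at or under the 3-count floor, and no fold was taken. TFPI was not detectable above that floor in any group at this depth.

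For each of the 6 genes called with EGF, an exact permutation test (two-sided) of the CPM values of 3 EGF-treated against 3 untreated libraries gave p = 0.1, the smallest value that this design allows. The same test with bleogen pB1 gave p = 0.1 for PLAUR, PLAT and SERPINB2, 0.2 for SERPINE2, 0.4 for TFPI2, 0.5 for F3 and 0.9 for PLAU (exact permutation, 3 libraries per group). No single gene can therefore pass a threshold of 0.05 in this permutation test. The calls come from edgeR, which shares its estimate of the spread across genes.

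Between the treatments the doses differed (10 nM EGF and 1 µM bleogen pB1), so that the direct contrasts above compare the treatments as they were given. The place of each bleogen pB1-treated library between the untreated mean (0%) and the EGF-treated mean (100%) was computed on the log2 CPM scale for the 6 genes that EGF changed. PLAUR lay at 26.8%, 32.2% and 22.9% of this distance in replicates 1, 2 and 3. SERPINB2 lay at 26.1%, 9.48% and 18.8%, and SERPINE2 at 1.44%, 25.4% and 11.4%. For these 3 genes all bleogen pB1-treated libraries were on the EGF side of the untreated mean. F3 lay at −6.90%, 20.5% and 7.26%, TFPI2 at −10.9%, 1.25% and −16.2% and PLAT at −26.9%, −3.89% and −22.5%. For PLAT all bleogen pB1-treated libraries were thus on the side away from EGF, by a difference that was not called.

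The order of the transcripts, compared by FPKM because it accounts for length, was not the same with EGF. In untreated cells the mean FPKM fell from F3 (140.8) through PLAU (73.3), SERPINB2 (27.1) and PLAUR (8.72) to PLAT (6.01), TFPI2 (5.71), SERPINE2 (4.99) and TFPI. The libraries of PLAT and TFPI2 overlapped, as did those of TFPI2 and SERPINE2, so that the order of these neighbours is not settled. In EGF-treated cells it ran from F3 (274.6) to SERPINE2 (93.9) and SERPINB2 (93.5), which overlapped, and then to PLAU (73.4), PLAUR (42.2), TFPI2 (24.7), PLAT (2.28) and TFPI (0). Both serpins thus stood below urokinase in all untreated libraries and above it in all EGF-treated ones. With bleogen pB1, F3 (150.5), PLAU (74.8), SERPINB2 (34.7) and PLAUR (13.8) came in the order of the untreated cells, followed by SERPINE2 (7.65) and PLAT (7.20), which overlapped, TFPI2 (5.07) and TFPI.

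Ratios between members within a library were taken from the FPKM as a description, chosen after the values were seen and not tested. The FPKM of the 2 activators summed, divided by that of SERPINE2 and SERPINB2 summed, was 2.37, 2.51 and 2.55 in the untreated libraries. It was 0.415, 0.384 and 0.415 in the EGF-treated libraries and 2.00, 1.86 and 1.95 in the bleogen pB1-treated libraries. The 3 groups did not overlap, and activator transcripts exceeded those of the 2 serpins except in the EGF-treated cells. The ratio of PLAU to its receptor PLAUR went from 8.41 ± 0.261 without treatment to 1.75 ± 0.142 with EGF and 5.45 ± 0.589 with bleogen pB1 (SD, n = 3), while PLAU was not called between the groups. PLAT made up 7.58% ± 0.145 of the summed activator FPKM without treatment, 3.02% ± 0.215 with EGF and 8.77% ± 0.572 with bleogen pB1 (SD, n = 3). F3 exceeded TFPI2 by 25.0 ± 2.87 times without treatment, 11.1 ± 1.03 times with EGF and 29.9 ± 3.15 times with bleogen pB1 (SD, n = 3). These are ratios of transcripts and say nothing of the amount or activity of the proteins.

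**Figure D3:**
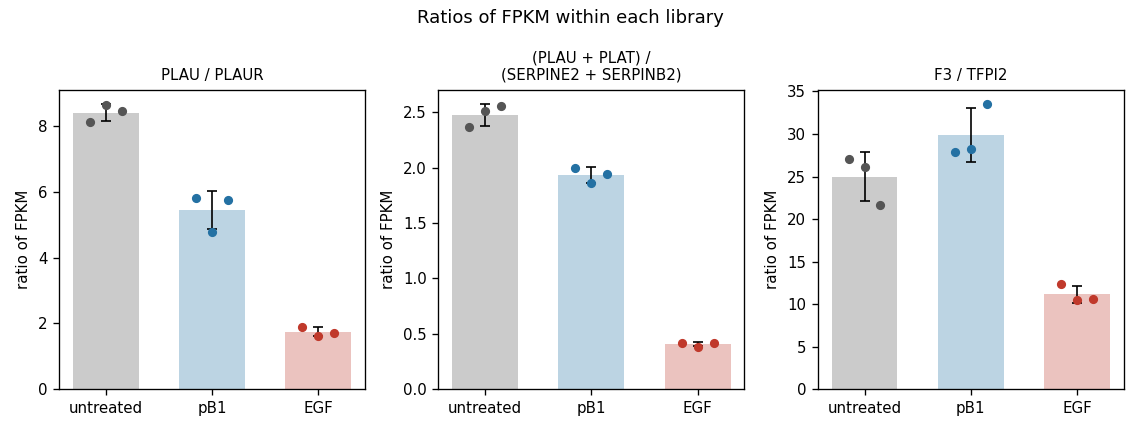
Ratios of FPKM within each library (vertical axes, no unit) in the 3 groups, for PLAU to PLAUR, PLAU plus PLAT to SERPINE2 plus SERPINB2, and F3 to TFPI2, with 1 point per library, a bar at the mean and its SD as error bar. The ratio of PLAU plus PLAT to SERPINE2 plus SERPINB2 lies above 1 in untreated and bleogen pB1-treated cells and at 0.384 to 0.415 in EGF-treated cells.

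The windows of 250 bases before the RefSeq transcription starts (GRCh38.p14) were searched on both strands. The patterns were TGANTCA (N is any base) for the AP-1 site, GGGCGG for the SP1 site and TATAAA for the TATA box. AP-1 is the factor of FOS and JUN proteins, which EGF receptor signalling is known to induce. The reference table held 9 such windows for 7 of the 8 genes. It held none for PLAT, the member that EGF lowered, so PLAT was not searched. An AP-1 match was found in 4 of the 9 windows, those of PLAUR, SERPINB2, F3 and TFPI2, where 6.57% of the 35116 windows of all genes hold 1 or more. The first base of the match lay 186 bases before the start of PLAUR, 102 before that of SERPINB2, 87 before that of TFPI2, and 223 and 210 before that of F3, which has a pair of matches. The letters were TGAGTCA in PLAUR and the nearer match of F3 and TGAATCA in the others. The windows of SERPINB2 and TFPI2 thus matched only through an A at the free position, and a stricter pattern was not searched. These 4 genes are among the 5 that EGF upregulated. The other one, SERPINE2, had no AP-1 match in its windows, nor had PLAU and TFPI. A match to the TATA box pattern (10.7% of all windows) was found 30 bases before the start of SERPINB2 and 28 before that of F3. That of SERPINB2 reads TATAAA on the strand of the gene. That of F3 reads TTTATA there, so that TATAAA is on the opposite strand. SP1 matches (42.6% of all windows) were found in windows of PLAU, SERPINE2, F3 and TFPI2. A match says only that the letters are there, and its part in the response was not tested.

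The windows that hold an AP-1 match are shown because their genes rose together with EGF. Capitals mark the AP-1 match, and each is written 5′ to 3′ on the strand of its gene, from RefSeq on GRCh38.p14. For PLAUR only the 30 bases around the match are given. The regions are chr18:63887455-63887704 (plus strand) for SERPINB2, chr1:94541760-94542009 (minus strand) for F3, chr7:93890754-93891003 (minus strand) for TFPI2 and chr19:43670337-43670366 (minus strand) for PLAUR.
SERPINB2: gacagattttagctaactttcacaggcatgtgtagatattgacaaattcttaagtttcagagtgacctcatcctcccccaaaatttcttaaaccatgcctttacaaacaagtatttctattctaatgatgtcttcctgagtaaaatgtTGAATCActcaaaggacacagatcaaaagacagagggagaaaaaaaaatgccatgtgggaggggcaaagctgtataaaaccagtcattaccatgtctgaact
F3: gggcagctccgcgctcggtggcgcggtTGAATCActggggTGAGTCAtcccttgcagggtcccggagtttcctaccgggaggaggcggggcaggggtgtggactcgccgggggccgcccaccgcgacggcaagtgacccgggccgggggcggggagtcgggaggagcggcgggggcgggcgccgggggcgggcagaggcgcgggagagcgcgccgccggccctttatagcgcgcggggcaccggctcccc
TFPI2: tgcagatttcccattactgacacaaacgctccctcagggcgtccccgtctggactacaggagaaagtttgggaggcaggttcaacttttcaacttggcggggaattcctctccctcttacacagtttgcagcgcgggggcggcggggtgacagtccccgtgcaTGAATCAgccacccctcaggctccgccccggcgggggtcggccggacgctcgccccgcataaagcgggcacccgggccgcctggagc
PLAUR: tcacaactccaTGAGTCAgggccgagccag

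The F3 window has a pair of matches near its far end, and 4 SP1 matches stand between them and the start, in a window of 78.0% G and C. The SERPINB2 window has 37.2% G and C and its match nearer the middle, and the TFPI2 window has 64.4%. The TFPI2 match lies between 2 SP1 matches. The letters TGAATCA are shared by SERPINB2, F3 and TFPI2, whose EGF responses were 3.62-fold, 2.04-fold and 4.52-fold. PLAUR, with TGAGTCA alone, rose 5.09-fold, and SERPINE2, without an AP-1 match in its windows, rose 19.7-fold. A link between the letters and the size of the response was not tested.

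**Figure D4:**
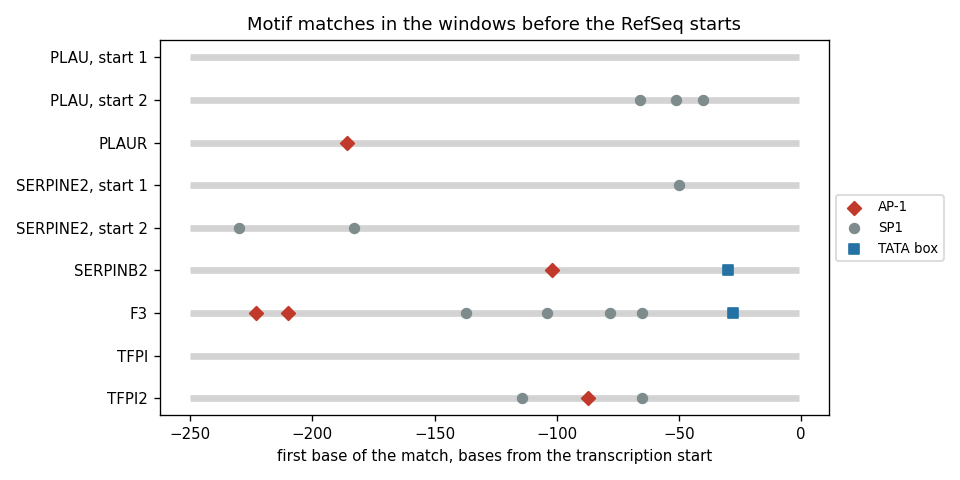
Positions of AP-1, SP1 and TATA box matches in the 9 windows of 250 bases before the transcription starts of 7 genes (horizontal axis, bases from the start). AP-1 matches are drawn for PLAUR at −186, SERPINB2 at −102, TFPI2 at −87 and F3 at −223 and −210, and none for PLAU, SERPINE2 and TFPI.

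Around these members, 34 other genes of the pathway were examined in 4 lists, of which 20 passed the count filter. With EGF 5 were higher, 6 lower and 9 not called, with a median log2FC of 0.07. Of all 12394 tested genes, 15.1% were called higher and 21.8% lower with EGF, and the counts of each list below stand beside these shares. In the list of plasminogen and inhibitors, 3 of 8 genes were tested, with a median of −0.55. SERPINF2, the plasmin inhibitor α2-antiplasmin, fell from a CPM of 8.63 ± 0.834 to 2.71 ± 1.14 (SD, n = 3; log2FC −1.67, SE 0.31, edgeR adjusted p = 0.00038). The members SERPINE2 and SERPINB2 thus rose with EGF while the plasmin inhibitor SERPINF2 fell. Plasminogen itself (PLG) was at 0 in 7 of the 9 libraries and had at most 4 counts.

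Among 7 receptors and clearance receptors, all tested, 2 were higher and 2 lower with EGF (median log2FC 0.17). MRC2, a collagen receptor that associates with PLAUR, fell (log2FC −1.49, SE 0.12, edgeR adjusted p = 4.8e-07), as did LRP1, the receptor that takes up inhibitor-bound activators (log2FC −0.64, SE 0.068, edgeR adjusted p = 3.8e-06). ENO1, a glycolytic enzyme that also binds plasminogen at the surface, rose (log2FC 0.66, SE 0.071, edgeR adjusted p = 4.4e-06). In the list of proteases that can activate pro-urokinase and their inhibitors, 5 of 7 genes were tested, none was higher and 1 was lower (median −0.07): CTSB, the lysosomal protease cathepsin B, fell from a CPM of 315.8 ± 29.2 to 150.1 ± 1.56 (SD, n = 3; log2FC −1.07, SE 0.071, edgeR adjusted p = 7.6e-08). In the coagulation list, 5 of 12 were tested, 2 were higher and 2 lower (median 0.22). F2R, the thrombin receptor PAR1, fell (log2FC −0.94, SE 0.12, edgeR adjusted p = 1.7e-05) and PROCR, the receptor of protein C, rose (log2FC 0.69, SE 0.090, edgeR adjusted p = 2.1e-05). F2RL2 was called lower on 4 to 21 counts in untreated and 1 to 4 in EGF-treated libraries, and the call was lost on the FPKM scale with a pseudocount of 1. Coagulation factors II and VII (F2, F7) were at 0 in all libraries.

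With bleogen pB1 none of the 20 genes was called by edgeR or DESeq2 (0 in each), where edgeR called 1.48% of all tested genes. Their median log2FC was −0.05. An unadjusted p under 0.05 in edgeR was found for 5. The share of all genes at that level was not taken, so this count cannot be read as a response of these genes. SERPINF2 had a log2FC of −0.63 (SE 0.28, edgeR adjusted p = 0.21). Without bleogen pB1 replicate 1, SERPINF2 was called with a log2FC of −1.05 (edgeR adjusted p = 0.02). Its counts were 176, 95 and 84 in the bleogen pB1-treated libraries, against 164 to 197 in the untreated ones, so that only replicate 1 was inside the untreated range. Directly between EGF and bleogen pB1, 10.8% of all tested genes were called higher and 18.0% lower with EGF. Of the 20 genes, 4 were higher and 6 lower (median 0.11), 10 in all. Without bleogen pB1 replicate 1 this count was 8, where SERPINF2 (log2FC −0.63, edgeR adjusted p = 0.077), THBD (log2FC 0.48, edgeR adjusted p = 0.0021) and F2RL2 (log2FC −1.91, edgeR adjusted p = 0.053) were lost and ANXA2 was gained (log2FC 0.54, edgeR adjusted p = 3e-05). These genes are named because their calls changed. Over all genes, 3106 were called without that library and 3564 with it. The count was 9 to 12 when any other EGF-treated or bleogen pB1-treated library was left out, so it did not turn on replicate 1 alone. THBD was also lost with upper-quartile factors and without scaling, and F2RL2 without EGF replicate 3 or bleogen pB1 replicate 3.

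**Figure D5:**
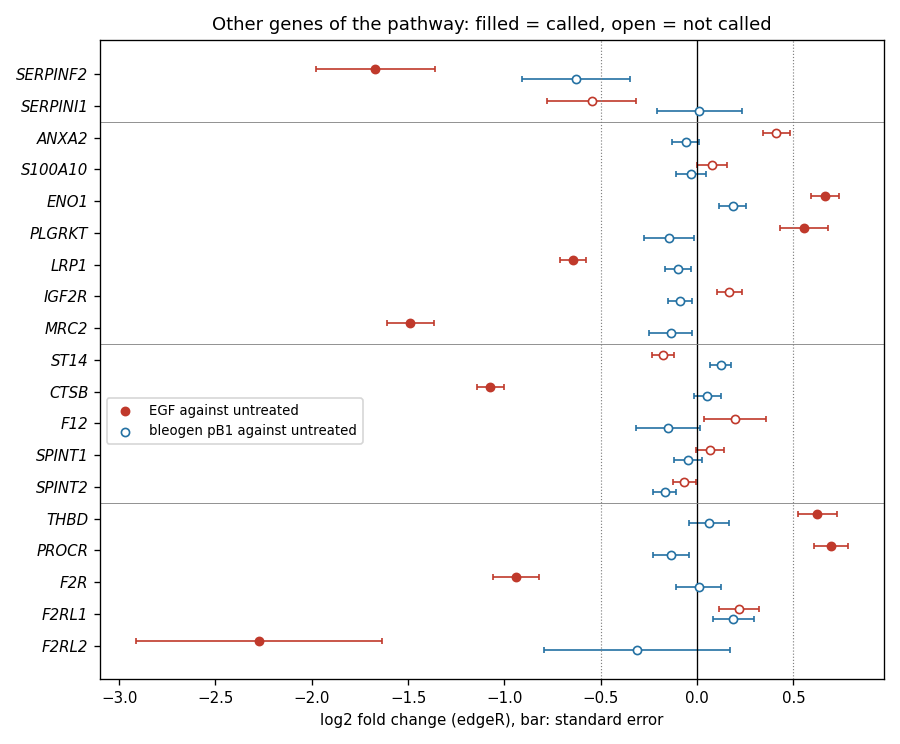
Log2 fold changes with standard errors (edgeR) of the tested genes of the 4 other lists, 1 gene left out, against untreated cells, for EGF and bleogen pB1; filled points were called, open points were not, and dotted lines mark a log2FC of 0.5 in size. With EGF, PROCR is highest at 0.69 and F2RL2 lowest at −2.27 among the genes drawn, and all points of bleogen pB1 are open.

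The genes whose log2 CPM across the 9 libraries was most like that of a member were found by Pearson's r over the tested genes. For 6 of the 7 tested members the 3 EGF-treated libraries stand apart from the other 6, so that a high r with these members mainly says that a gene differs between them in the same way. For PLAUR these were MISP and CLTB (both r = 0.994), for SERPINE2 VPS37A (r = 0.999) and GPAT3 (r = 0.998), and for SERPINB2 the cyclin D1 gene CCND1 (r = 0.994). For F3 they were SOX15 (r = 0.997) and CARD10 (r = 0.996), for TFPI2 SLC20A1 and PHLDA1 (both r = 0.996), and for PLAT, which fell, SVIL (r = 0.996) and RHOV (r = 0.995). PLAU, which was not called, had lower maxima, C1QTNF1 (r = 0.950) and TSACC (r = 0.949).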

How the data were processed

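Expected counts, FPKM values and gene lengths were deposited by the authors in 1 file per library. Per the labels and the methods of the study, polyadenylated RNA was made into dUTP-stranded libraries and sequenced by BGI, and reads were mapped to GRCh38.p12. The labels name an RNeasy kit and DNBSEQ, the methods a PureLink kit and a BGISEQ instrument. The program behind the expected counts, its annotation and its use of strand are not given in the sources used here. A length per gene and library stands beside the values. FPKM was deposited by the authors to 2 decimals, the lowest listed being 0.01, and a gene missing from a file was taken as 0.

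Rounded to whole numbers, the expected counts were fitted with edgeR 4.0.16 in R 4.3.3 (filterByExpr, 12394 genes kept; TMM factors of 0.9635 to 1.024; glmQLFit and glmQLFTest, 9 libraries in 1 fit with 6 residual degrees of freedom, Benjamini-Hochberg adjustment). SE is the absolute log2FC divided by the square root of the F value. Genes at an adjusted p of at most 0.05 and a log2FC of at least 0.5 in size, the thresholds of the study's methods, were called. CPM used TMM-scaled totals. On the log2 scale a prior count of 2 was used for the correlations, and none for the place of libraries between the group means. Alternatives were DESeq2 1.42.0, limma 3.58.1 on log2(FPKM + 1) or log2(FPKM + 0.1), with or without an FPKM filter of 1, the 6 libraries compared, RLE, upper-quartile or no scaling, dropping the count filter or asking for 10 counts in each library, other fold limits, glmTreat, a replicate block and each library left out. Scripts were tested on simulated data. Tables were joined in Python 3.11.15. Positions are those of GENCODE release 44, and promoter windows those of RefSeq on GRCh38.p14.

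The members and gene lists were chosen with earlier results of these data known. All members were named, from each other list the 3 called genes with the largest log2FC in size with EGF, every called gene with bleogen pB1, and for each tested member the 2 genes with the highest r. Of the genes that meet this rule, 1 is not reported here and stays in the fits and list totals. No files were pooled, and no 2 libraries agreed within sampling noise.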

Additional observations from a re-analysis of the deposited data

How the results depend on the processing

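For EGF against untreated cells 6 members were called under all 20 alternatives. For EGF against bleogen pB1 6 were called, except 5 with a log2FC limit of 1, where F3 was lost. For bleogen pB1 against untreated cells 1 was called, except 0 with a log2FC limit of 1, 0 with glmTreat and 1 to 2 when 1 library was left out, where SERPINE2 was gained without bleogen pB1 replicate 1. PLAU, which was never called, changed sign: for EGF against untreated cells to −0.0397 (upper-quartile factors), for bleogen pB1 against untreated cells to −0.0077 (upper-quartile factors) and between −0.032 and 0.040 with 1 library left out, and for EGF against bleogen pB1 to −0.027 [log2(FPKM + 0.1)], −0.026 [log2(FPKM + 1), with and without the FPKM filter], −0.015 (no scaling) and −0.032 (upper-quartile factors). F3 with bleogen pB1 lay between −0.00021 and 0.144 with 1 library left out. No other member changed sign. Upper-quartile factors moved the median of all genes for EGF against untreated cells from −0.013 to −0.118.

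Over all genes, the calls were 1892 with a log2FC limit of 1, 8187 on the adjusted p alone and 2919 with glmTreat for EGF against untreated cells. They were 31, 509 and 5 for bleogen pB1 against untreated cells, and 1458, 7214 and 2026 for EGF against bleogen pB1. With 1 library left out, the calls for bleogen pB1 against untreated cells ranged from 102 to 436 (436 without bleogen pB1 replicate 1, 109 without replicate 2, 102 without replicate 3 and also 102 without untreated replicate 1), and those of the other pathway genes from 0 to 1. Of the other pathway genes, 5 were called with a log2FC limit of 1 for EGF against untreated cells, and for EGF against bleogen pB1 5 with that limit and 5 with glmTreat.

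The deviations of same-numbered libraries from their group means had r = −0.0304 to 0.207. For EGF against untreated cells the mean r was 0.0281 for the same number and −0.0141 for other numbers. It was 0.0964 and −0.0486 for bleogen pB1 against untreated cells, and 0.0403 and −0.0198 for EGF against bleogen pB1. The deviations cancel within each group, so the mean for other numbers largely follows from that for the same number and is no separate comparison. With 3 libraries per group these values cannot decide whether the number marks a shared batch, and no source says what it marks. With the replicate block 4560, 186 and 3550 genes were called, and 6, 1 and 6 members. For TFPI the depth allowed no test. Only transcripts were measured, at 1 dose and 1 time.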
